A study of Mus musculus with 4 samples.

Results

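The genes of fatty acid oxidation and ketone use were followed in the infarcted left ventricle of mice with and without the histone demethylase KDM5B. The set held 39 genes, chosen by name for their place in the pathway, among 27376 gene names on the array. They were measured by 59 of 41174 probes, and each gene is given here by the probe with the highest mean signal over the arrays. The data were 4 one-colour Agilent Whole Mouse Genome arrays, 2 of KDM5B-knockout (KO) and 2 of wild-type (WT) left ventricle, which the titles number 2 and 3 in each group (WT 2, WT 3, KO 2 and KO 3). Both groups were on the C57BL/6 background, 8 to 10 weeks old, labelled male, and sampled 7 days after myocardial infarction (MI) in which the left anterior descending artery was tied off for good. The KO mice carried a CRISPR/Cas9 deletion of the part of Kdm5b that encodes the JmjC domain and a shift of the reading frame, with no restriction to a cell type named. The study describes the WT mice as littermates, and its methods also name a supplier of WT mice. No array of an uninjured heart was analysed here, so every level is that of an infarcted ventricle.

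The heart draws most of its energy from long-chain fatty acids. These are released from lipoproteins, taken up, activated to acyl-CoA, carried into the mitochondrion by the carnitine shuttle and shortened by repeated cycles of beta-oxidation, whose electrons pass through the electron transfer flavoprotein to the respiratory chain. Ketone bodies are a further fuel that the heart turns back into acetyl-CoA. Cardiomyocytes hold most of this machinery, and the nuclear receptors PPAR-alpha and the estrogen-related receptors (ERR), with their PGC-1 coactivators, are known to drive its genes. Fibroblasts and macrophages, which fill the infarct and its border in the first week, hold less of it.

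The promoters show what the genes do and do not share in the letters that these receptors read. PPAR and ERR bind sites built on the core motif AGGTCA. A RefSeq window from 250 bases before to 50 bases after the start of transcription was found for 32 of the 39 genes, on build GRCm38.p6. The core motif, searched on both strands, was in 7 of these 32 (21.9%), namely Acacb, Acadm, Acadvl, Cd36, Cpt1a, Echs1 and Ucp3, against 4900 of all 27025 genes with a window (18.1%). The extended ERR element TCAAGGTCA, which contains the core motif, was in 0 of the 32 and in 0.466% of all genes. The DR1 element, a direct repeat of the core motif with 1 free base between the copies, was in 0 of the 32 and in 0.0481% of all genes. A match is only a match of letters, and its lack here says nothing about the receptors. The 250 bases before the start are shown for 4 genes whose windows held the core motif, with it in capitals (TGACCT where it lay on the other strand). Acadm and Acadvl are oxidation enzymes, Cd36 brings fatty acids into the cell, and Cpt1a is the gene whose brighter probe ran against the common order over the arrays.
Acadm, chr3:153944644-153944893, minus strand: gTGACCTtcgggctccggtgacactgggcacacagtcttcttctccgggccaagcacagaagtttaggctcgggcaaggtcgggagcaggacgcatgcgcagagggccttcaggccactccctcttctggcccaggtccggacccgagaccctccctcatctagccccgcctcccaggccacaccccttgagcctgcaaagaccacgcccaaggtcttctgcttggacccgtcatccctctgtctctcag
Acadvl, chr11:70015429-70015678, minus strand: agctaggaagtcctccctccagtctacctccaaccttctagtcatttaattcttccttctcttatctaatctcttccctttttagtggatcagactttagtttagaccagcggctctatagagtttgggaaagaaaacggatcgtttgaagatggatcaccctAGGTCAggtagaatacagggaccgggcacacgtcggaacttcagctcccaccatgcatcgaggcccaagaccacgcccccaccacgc
Cd36, chr5:17835897-17836146, minus strand: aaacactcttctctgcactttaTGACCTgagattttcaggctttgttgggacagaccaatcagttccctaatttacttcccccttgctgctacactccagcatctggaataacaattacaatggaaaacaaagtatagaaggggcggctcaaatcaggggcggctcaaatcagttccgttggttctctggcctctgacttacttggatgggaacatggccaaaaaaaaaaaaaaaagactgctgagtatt
Cpt1a, chr19:3323051-3323300, plus strand: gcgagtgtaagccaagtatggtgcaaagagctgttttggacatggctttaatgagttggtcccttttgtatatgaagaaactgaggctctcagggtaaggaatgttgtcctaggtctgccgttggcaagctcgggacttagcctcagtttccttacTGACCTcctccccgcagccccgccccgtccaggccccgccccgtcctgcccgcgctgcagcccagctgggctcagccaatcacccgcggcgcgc
The core motif began 249 bases before the start in Acadm, 87 in Acadvl, 228 in Cd36 and 94 in Cpt1a, so it had no common position.

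Several features of the arrays bear on the comparison. Kdm5b, by its brighter probe on mm9 (chr1:136485365-136485424), was -0.87 on WT 2 and -1.81 on WT 3, against -2.40 on KO 2 and -2.26 on KO 3, lower on both KO arrays, although its difference of -0.996 (SE 0.40) had a limma adjusted p of 0.9999. Xist, the RNA of the inactive X chromosome, was well above background on WT 2 and KO 2, and the Y-linked Ddx3y on WT 3 and KO 3, so the number also separates the arrays by a sex-linked signal although all are labelled male. All 4 arrays lay on 1 slide, WT at positions 1 and 2 and KO at positions 3 and 4, and slide position and genotype cannot be told apart. KO 2 stood apart from the other arrays. Its correlation with them over all tested probes lay between 0.919 and 0.962, against 0.970 to 0.986 among the other 3, and it carried atrial and adipocyte transcripts. The atrial genes Myl7 and Myl4 exceeded WT 2 there by 7.09 and 6.08, Sln was 5.95 on KO 2 and not well above background on WT 2, and Adipoq was well above background on KO 2 alone, while Lep and Ucp1 were on no array. With 2 arrays a group, p-values measure only the spread between these samples, and an exact permutation test cannot go below 0.333.

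No gene of fatty acid oxidation or ketone use passed the test, although nearly all were higher in KO on average. A level is the log2 signal relative to the 75th percentile of the same array, and a difference is KO minus WT of such levels. Of the 39 genes, 38 were tested, and these were well above background on all 4 arrays. Ucp3, the mitochondrial uncoupling protein of muscle, was above background on WT 2 and KO 2 alone and was not tested. The limma threshold, a fold change over 2 together with an adjusted p under 0.05, was met by 0 of 38, as by 0% of all 28304 tested probes. At an unadjusted p under 0.05 there were 0 of 38, against 1.45% of all tested probes, and the lowest p, by limma, was 0.279 for Pdk4. None of the 38 was more than 2-fold higher in KO, as 1% of all probes were. The difference was above 0 for 37 of 38, against 52.3% of all tested probes, and the median was 0.50 against 0.017 over all probes. Cpt1a, at -0.028, was the exception. The groups overlapped for every tested gene: 0 of 38 had both KO arrays above both WT arrays and 0 had both below, against 13.1% and 10.9% of all probes. The count of 37 rested on KO 2, since without it 1 of 38 genes was higher in KO and the median was -0.75. Without WT 3, 22 of 38 were higher and the median was 0.051. With quantile normalization 34 of 38 were higher and the median was 0.32.

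**Figure D1:**
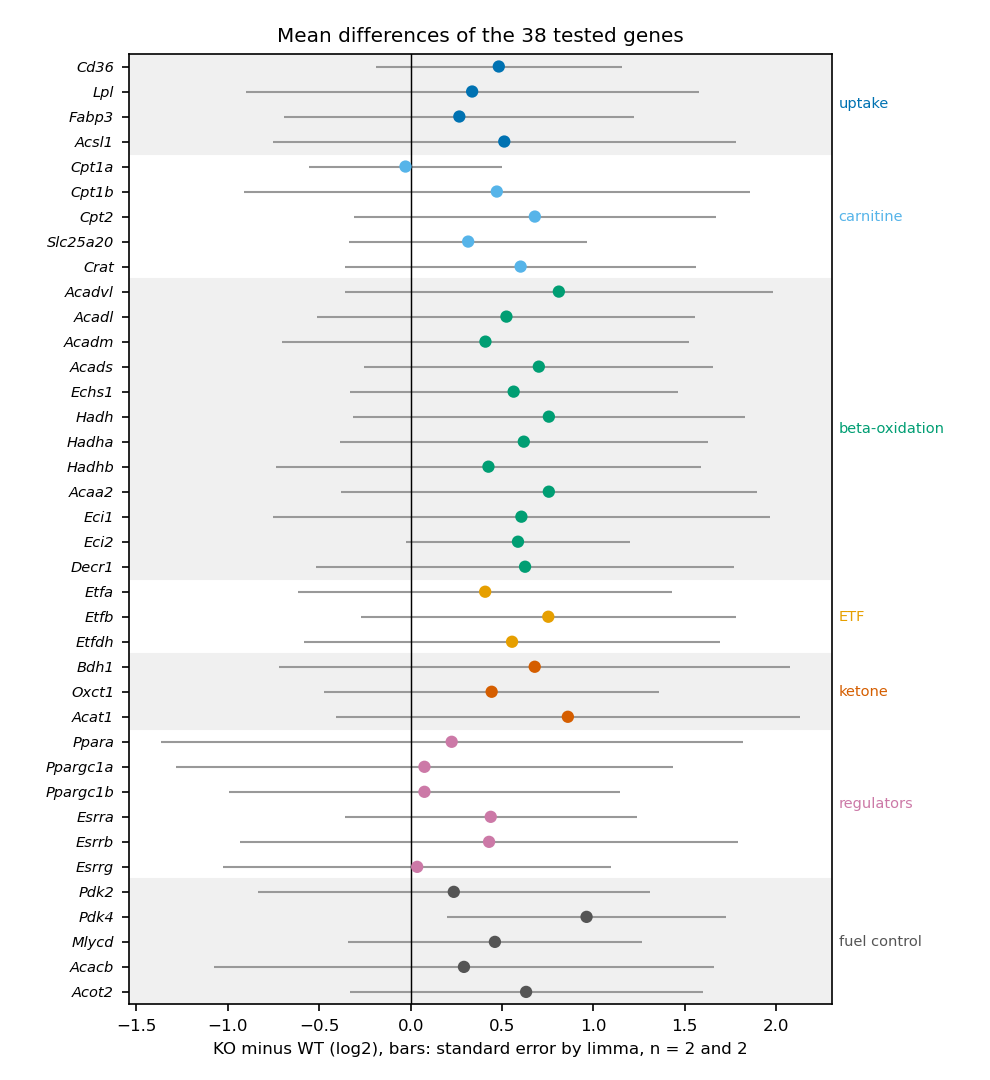
Difference KO minus WT (log2) for each of the 38 tested genes, ordered by role, with bars of 1 standard error by limma (2 arrays a group). All points but that of Cpt1a (-0.028) lie above 0, the highest is Pdk4 at 0.96, and every bar but that of Pdk4 reaches 0 or below it.

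The mean over 2 arrays joined 2 pairs that ran in opposite directions. At number 2, 37 of 38 genes were higher in KO than in WT, 33 of them by more than 2-fold, as 6.19% of all tested probes were. The median difference was 1.37, with a range from -0.27 (Cpt1a) to 2.19 (Pdk4). At number 3, 4 of 38 were higher in KO, the median was -0.30 and the range ran from -1.10 to 0.22. There, 2 of 38, Ppara and Ppargc1a, were lower by more than 2-fold, against 1.78% of all tested probes. In all, 34 of 38 genes were higher in the first pair and lower in the second, against 26.3% of all tested probes. The 3 that were higher in KO at both numbers were Eci2, Etfb and Acat1, by 0.044, 0.038 and 0.088 at number 3. No replicate stands behind a single pair, so neither within-number difference was tested.

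The genes ran together over the arrays. For 33 of the 38 tested genes the order from high to low was KO 2, WT 2, WT 3, KO 3, an order shown by 17.5% of all tested probes. Eci2, Etfb and Acat1 had KO 3 just above WT 3. Pdk4 was lowest on WT 2, and Cpt1a, by its brighter probe, had the order KO 3, WT 3, WT 2, KO 2. The median level of the 39 genes was 3.63 on WT 2 and 2.76 on WT 3, against 5.06 on KO 2 and 2.60 on KO 3, with a standard deviation of 1.31 within the groups. The cardiomyocyte markers moved with them. The mean of a list of 16 genes that mark heart muscle cells, most of them of the contractile apparatus, was 6.30 on WT 2 and 5.18 on WT 3, against 7.31 on KO 2 and 4.43 on KO 3, and all 16 took the same 2 directions, higher in KO 2 and lower in KO 3. The 10 macrophage markers did the reverse, with a mean of 3.42, 3.94, 2.17 and 4.24 on the same arrays, and of 10 fibroblast markers 0 were higher in KO at number 2 and 5 at number 3. The 4 atrial markers averaged 0.062, 0.67, 6.76 and 1.42, and the 8 adipocyte markers -4.98, -5.03, -2.34 and -5.07. Of the 8 adipocyte markers only 3, 3, 6 and 4 were well above background on these arrays, so part of these means is background signal. The part of atrial and adipose tissue in the levels on KO 2 was not tested. All 8 endothelial markers also took the 2 directions of the cardiomyocyte list, with median differences of 0.55 at number 2 and -0.23 at number 3. So did all 3 tested erythroid markers, with medians of 1.89 and -1.04. These directions were therefore not particular to the cardiomyocyte list, and the part of each cell type was not tested. In RNA of a whole ventricle, fewer cells of a type and less RNA per cell cannot be told apart.

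**Figure D2:**
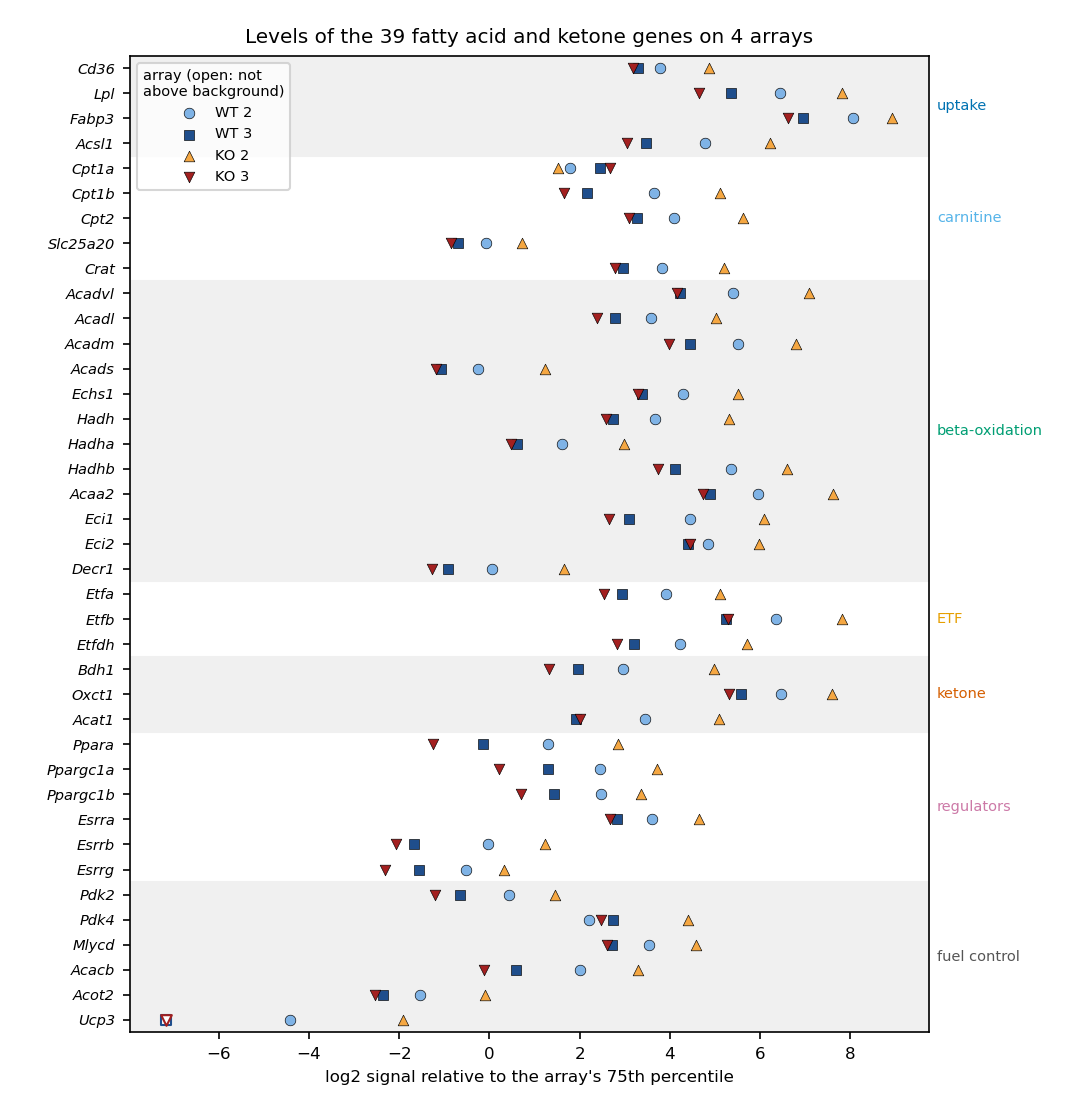
Level of each of the 39 genes (log2 signal relative to the array's 75th percentile) on WT 2, WT 3, KO 2 and KO 3, grouped by role. For 33 genes the arrays run KO 3, WT 3, WT 2, KO 2 from left to right, and the probe of Cpt1a runs the other way. Of Ucp3 the open points are not above background and have no order.

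**Figure D3:**
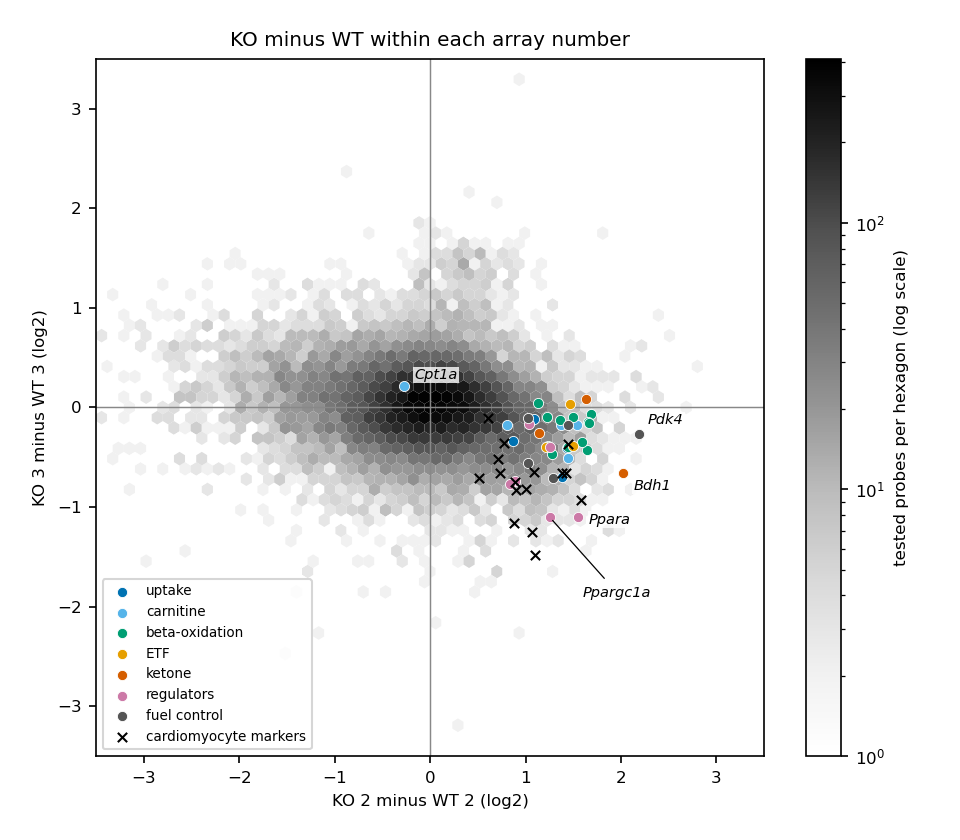
Difference KO 2 minus WT 2 (horizontal, log2) against KO 3 minus WT 3 (vertical, log2) for the 38 tested genes by role (coloured points), 16 cardiomyocyte markers (crosses) and all tested probes (grey, probes per hexagon on a log scale; 154 lie outside the axes). Of the 38 genes 34 lie in the lower right quadrant, as do all 16 markers, and the markers extend further down.

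The first step brings fatty acids to and into the cell. All 4 genes of uptake and activation were higher in KO on average, higher at number 2 and lower at number 3, with a median difference of 0.41. Lpl, the lipase that frees fatty acids from lipoproteins, was 6.44 on WT 2 and 5.35 on WT 3, against 7.81 on KO 2 and 4.65 on KO 3. Its KO arrays were the highest and the lowest of the 4, and the difference was 0.34 (SE 1.24), or 0.012 with quantile normalization. Cd36, the fatty acid translocase of the cell membrane, was 3.78 and 3.30 in WT against 4.87 and 3.18 in KO. The number 3 arrays were nearly level, and the difference was 0.48 (SE 0.67). Fabp3, the fatty acid binding protein of heart muscle, was 8.06 and 6.96 in WT against 8.94 and 6.62 in KO, a difference of 0.27 (SE 0.96) whose sign changed to -0.16 with quantile normalization. Acsl1, the main acyl-CoA synthetase of the heart, was 4.78 and 3.47 in WT against 6.22 and 3.06 in KO. In both groups array 2 was the higher, by 1.31 in WT and by 3.16 in KO. Lpl, Cd36 and Acsl1 are also expressed by adipocytes, whose product Cfd was 6.21 higher on KO 2 than on WT 2.

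The carnitine shuttle held Cpt1a, the 1 gene with a mean difference below 0. Of its 5 genes, 4 were higher in KO on average, and the median difference was 0.47. The shuttle begins with carnitine palmitoyltransferase 1, whose liver-type isoform Cpt1a and muscle-type isoform Cpt1b are separate genes. Cpt1b (probe at chr15:89246889-89246948, mm9) was 3.66 on WT 2 and 2.17 on WT 3, against 5.10 on KO 2 and 1.67 on KO 3, a difference of 0.47 (SE 1.38). Cpt1a, by its brighter probe (chr19:3385374-3385433), was 1.79 on WT 2 and 2.46 on WT 3, against 1.52 on KO 2 and 2.68 on KO 3, a difference of -0.028 (SE 0.53). By that probe Cpt1a was lowest on KO 2 and highest on KO 3, the arrays where Cpt1b was highest and lowest. The dimmer probe (chr19:3384629-3384688) did not share this order. It was -0.89 and -0.56 in WT against -0.56 and -0.24 in KO, lowest on WT 2 and higher in KO by 0.32 at number 2 and 0.33 at number 3. The mean of both probes was 0.15, so neither the order nor the direction of Cpt1a is settled. Cpt2, the inner-membrane partner of CPT1, was 4.08 and 3.27 in WT against 5.62 and 3.09 in KO, a difference of 0.68 (SE 0.99). Slc25a20, the translocase that carries acylcarnitine across the inner membrane, and Crat, which acts on short acyl groups, differed by 0.31 and 0.60. Both were higher on KO 2 than on WT 2, and both differed by -0.17 at number 3.

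The beta-oxidation spiral held 12 genes, and their values ran closely together. All 12 were higher in KO on average, by 0.41 to 0.81 with a median of 0.61. At number 2 all 12 were more than 2-fold higher in KO, by 1.13 to 1.69, and at number 3 they lay within -0.46 to 0.044. The acyl-CoA dehydrogenases take the first step, each for its own chain length. Acadvl, for very long chains (probe at chr11:69823750-69823809), was 5.40 on WT 2 and 4.23 on WT 3, against 7.09 on KO 2 and 4.16 on KO 3. Its difference of 0.81 (SE 1.17) was the highest of the spiral and came from KO 2, since the number 3 arrays differed by -0.068. Acadm, for medium chains, was 5.51 and 4.45 in WT against 6.80 and 3.99 in KO, with the lowest difference of the spiral, 0.41 (SE 1.11). Acadl and Acads, for long and short chains, differed by 0.52 and 0.70. The next steps belong to the mitochondrial trifunctional protein for long chains and to single enzymes for shorter ones. Hadha, the alpha subunit of the trifunctional protein, was 1.62 and 0.60 in WT against 2.98 and 0.48 in KO, a difference of 0.62 (SE 1.01). Hadhb, its beta subunit, differed by 0.43, and Echs1, the short-chain hydratase, by 0.56. Hadh, the dehydrogenase for medium and short chains, was 3.66 and 2.73 in WT against 5.32 and 2.59 in KO, a difference of 0.76 (SE 1.07). Acaa2, a mitochondrial thiolase of the spiral, was 5.95 and 4.89 in WT against 7.62 and 4.74 in KO, a difference of 0.76 (SE 1.14). For these genes WT 3 and KO 3 lay only 0.15 and 0.16 apart. The auxiliary enzymes for unsaturated fatty acids, Eci1, Eci2 and Decr1, differed by 0.61, 0.59 and 0.63, and Eci2 was higher in KO at both numbers, by 1.13 and 0.044.

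Electrons leave the dehydrogenases through the flavoprotein of Etfa and Etfb and its oxidoreductase Etfdh. All 3 genes were more than 2-fold higher in KO at number 2, by 1.22 to 1.49. Etfdh was 4.23 on WT 2 and 3.21 on WT 3, against 5.72 on KO 2 and 2.82 on KO 3, a difference of 0.55 (SE 1.14). Etfa and Etfb encode the subunits of 1 protein, and differed by 0.41 and 0.75. At number 3 the difference was -0.40 for Etfa and 0.038 for Etfb. Each of these compares 1 array with 1, so whether the subunits differ there was not tested.

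The genes of ketone use showed the same form with a median difference of 0.68. Bdh1, the mitochondrial dehydrogenase that oxidises beta-hydroxybutyrate (probe at chr16:31457378-31457437), was 2.95 on WT 2 and 1.97 on WT 3, against 4.97 on KO 2 and 1.31 on KO 3. At number 2 it was 2.02 higher in KO, which Pdk4 alone exceeded among the tested genes, and at number 3 it differed by -0.66, so its mean difference of 0.68 had an SE of 1.40. Oxct1, the rate-limiting CoA transferase of ketone use, was 6.46 and 5.57 in WT against 7.60 and 5.32 in KO, a difference of 0.44 (SE 0.92). Acat1, the thiolase that yields acetyl-CoA, was 3.45 and 1.92 in WT against 5.08 and 2.01 in KO, a difference of 0.86 (SE 1.27). Acat1 was higher in KO at both numbers, by 1.63 and 0.088.

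The transcriptional regulators differed least on average, with a median of 0.15 over 6 genes, and had the lowest median at number 3, -0.75. Ppara, the receptor for fatty acids that drives oxidation genes in the heart, was, by its probe at chr15:85631955-85632014, 1.29 on WT 2 and -0.14 on WT 3, against 2.84 on KO 2 and -1.24 on KO 3. It spanned 4.08 log2 units between the KO arrays, and its difference of 0.22 had an SE of 1.59. Ppargc1a, the coactivator PGC-1 alpha, was 2.45 and 1.31 in WT against 3.71 and 0.21 in KO, a difference of 0.076 (SE 1.36). Ppargc1b, the related PGC-1 beta, was 2.47 and 1.43 in WT against 3.37 and 0.69 in KO, a difference of 0.076 (SE 1.07). With quantile normalization Ppargc1a was -0.038 and Ppargc1b -0.017, and of the 3 probes of Ppargc1b the other 2 had the opposite sign, so these genes have no settled direction. The ERR genes are given first by their brighter probes. Esrra, the alpha form, was 3.60 and 2.83 in WT against 4.64 and 2.67 in KO, a difference of 0.44 (SE 0.80). Esrrb, the beta form, was -0.037 and -1.68 in WT against 1.22 and -2.08 in KO, a difference of 0.43 (SE 1.36). Esrrg, the gamma form, was -0.51 and -1.56 in WT against 0.33 and -2.32 in KO, a difference of 0.036 (SE 1.06). At number 3 the differences of Esrra, Esrrb and Esrrg were -0.16, -0.40 and -0.77. Their dimmer probes differed by 0.076, 0.18 and 0.13 on average, and by -0.12, -0.084 and 0.050 at number 3. No division among the ERR genes is therefore settled.

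The genes of fuel choice and export included the highest difference of the set. Pdk4, the kinase that shuts pyruvate dehydrogenase so that fatty acids are burnt instead of glucose, was, by its probe at chr6:5433441-5433500, 2.22 on WT 2 and 2.74 on WT 3, against 4.41 on KO 2 and 2.47 on KO 3. It was high on KO 2, while the other 3 arrays spanned 0.52. Its difference was 0.96 (SE 0.76), a fold of 1.95, and without KO 2 it was -0.0091. Pdk2, the isoform of the same kinase family that is present in most tissues, was 0.44 and -0.65 in WT against 1.47 and -1.21 in KO, a difference of 0.24 (SE 1.07). Mlycd, which removes the malonyl-CoA that blocks CPT1, was 3.54 and 2.72 in WT against 4.57 and 2.61 in KO, a difference of 0.46 (SE 0.80). Acacb, which makes that malonyl-CoA, also had a higher mean in KO, by 0.29, as did Acot2, a thioesterase that releases fatty acids from CoA in the matrix, by 0.63. Ucp3 was -4.42 on WT 2 and -1.91 on KO 2 and not well above background on the other arrays.

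Since the cardiomyocyte markers differed between arrays in the same direction, the genes were also read relative to them, by subtracting the mean of the 16 markers from each array. The scaling moves every difference at number 2 by -1.01 and every difference at number 3 by 0.74, and with it the medians of all tested probes were -0.99 and 0.76, and -0.11 for the mean of both. Relative to the markers, 33 of 38 genes were higher in KO at number 2, against 6.11% of all tested probes. At number 3, 35 of 38 were higher, against 96.3% of all probes, so this count follows from the shift. At both numbers 31 of 38 were higher, as 5.27% of all probes were. The median difference was 0.37, made of 0.36 at number 2 and 0.44 at number 3, the latter below the median of all probes there. For 20 of 38 genes the KO arrays were both above the WT arrays, against 1.45% of all tested probes, and both below for 0. So were 3 of 4 atrial markers (Sln, Myl7 and Myl4), with medians of 5.58 at number 2 and 1.04 at number 3. The same held for 2 of 4 tested adipocyte markers (Cfd and Cidec), with medians of 1.88 and 1.02. The medians at number 3 are to be read against the 0.76 of all tested probes there. Sln was too dim on WT 2, and Retn, another tested adipocyte marker, was too dim in WT. Both entered the test through their KO signal, so their part in these values follows partly from that selection. All probes are a loose background here, because the scaling also shifts the probes of genes from other cell types. Of 15 tricarboxylic acid cycle genes, another group of mitochondrial enzymes, 5 showed such separate groups and all 15 were higher in KO, with a median of 0.35. No member passed by limma with this scaling, where the lowest unadjusted p among them was 0.618. However, only 0.0565% of all tested probes had an unadjusted p under 0.05 there, against 1.45% without the scaling. The scaling moves the arrays of a group apart for most probes, so the test could hardly pass a member and says little about them. Scaling by the mean was chosen with earlier results of these data known. Scaling by the median of the 16 markers was added after the data were seen. With the median, 32 of 38 genes had a higher mean in KO, against 22.2% of all tested probes. At number 2, 25 of 38 were higher and at number 3, 35, and 6 had separate groups. The shares of all probes behind these further counts were not taken, so nothing is read from them.

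Relative to the markers, the enzymes and the regulators differed in their counts. The counts here are for the mean of the markers, and with their median the genes with separate groups were 6 of 38 in place of 20. Of the 12 beta-oxidation genes, 10 had both KO arrays above both WT arrays, against 1.45% of all tested probes. All 12 were higher in KO at both numbers, against 5.27% of all tested probes. Acadvl relative to the markers was -0.90 on WT 2 and -0.94 on WT 3, against -0.22 on KO 2 and -0.27 on KO 3. Here the WT arrays lay 0.044 apart, the KO arrays 0.051 apart, and the groups 0.63 apart at their nearest. Acaa2 was -0.36 and -0.28 in WT against 0.31 and 0.31 in KO, and Hadh was -2.64 and -2.44 against -1.99 and -1.84. For both genes the KO arrays stood clear of the WT arrays. Etfa, Etfb and Etfdh had separate groups, as did Bdh1 and Acat1 of the ketone genes, Cpt2 and Crat of the carnitine shuttle, Lpl and Acsl1 of uptake, and Acot2. Of the 6 regulators, 0 had separate groups and 2, Esrra and Esrrb, were higher at both numbers, and their median was 0.020. Ppara relative to the markers was -5.01 on WT 2 and -5.31 on WT 3, against -4.46 on KO 2 and -5.67 on KO 3, so its KO arrays were again the highest and the lowest. Ppargc1a, Ppargc1b and Esrrg turned to -0.055, -0.055 and -0.095. For the brighter probe of Cpt1a the differences were -1.28 at number 2 and 0.96 at number 3. Whether enzymes and regulators differ in response was not tested.

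**Figure D4:**
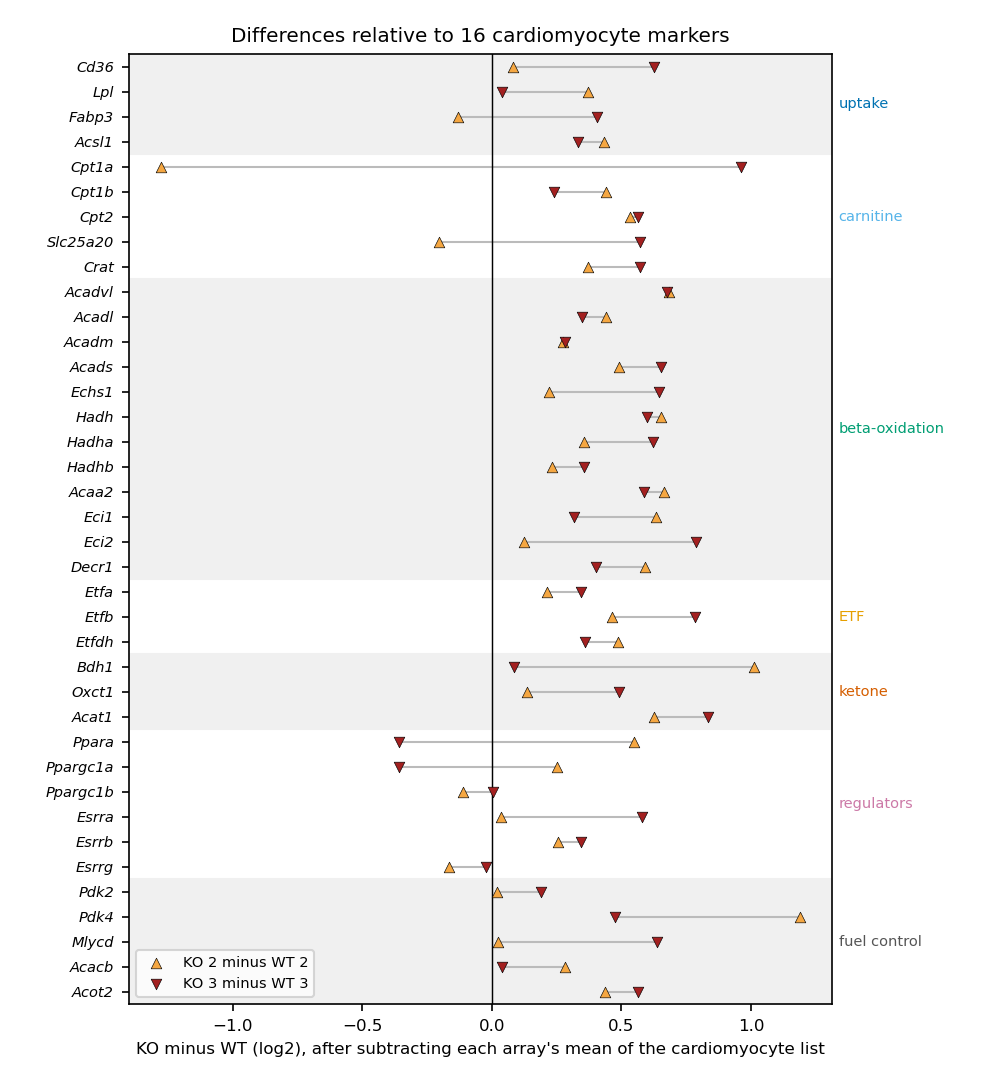
Difference KO minus WT (log2) at number 2 (triangles up) and number 3 (triangles down) for each of the 38 tested genes after the mean of 16 cardiomyocyte markers was subtracted from each array. Both triangles lie above 0 for 31 genes, among them all 12 of beta-oxidation, while Ppara and Ppargc1a lie at -0.36 at number 3 and Cpt1a lies apart at -1.28 and 0.96.

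Neighbouring pathways were read through 92 further genes, of which 89 were tested. None was called in either direction by limma, 71 were higher and 18 lower in KO, and the median was 0.27. The tricarboxylic acid cycle, which burns the acetyl-CoA, came closest to the oxidation genes, with 15 of 15 higher from Ogdh at 0.21 to Sdhd at 0.62, and medians of 1.22 at number 2 and -0.29 at number 3. The pyruvate dehydrogenase complex with its carriers and regulators had 9 of 10 higher, from Pdk3 at -0.17 to the pyruvate carrier subunit Mpc2 at 0.55. Peroxisomal oxidation had 13 of 14 higher within a narrower range, from Crot at -0.0034 to Pex11a at 0.52. Other mitochondrial fatty acid genes were mixed, with 11 of 17 higher, from the acyl-CoA synthetase Acsl3 at -0.47 to the fatty acid transporter Slc27a1 at 0.62. Of 14 genes of lipid storage and lipolysis 11 were higher, from the acetyl-CoA carboxylase Acaca at -0.26 to the monoacylglycerol lipase Mgll at 0.81. Other regulators had 9 of 13 higher, from Klf15 at -0.17 to the mitochondrial transcription factor Tfam at 0.42, which was 5.08 and 4.89 in WT and 5.51 and 5.29 in KO. Both KO arrays were above both WT arrays for 5 of the 89 tested genes, against 13.1% of all tested probes. These were Tfam, Slc27a1, Acot1, Hsd17b4 and Decr2.

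Of 6 further ketone genes 3 were higher in KO, and the highest was Slc16a1, the monocarboxylate carrier that also takes up ketone bodies, at 0.49. It was 3.07 and 2.24 in WT against 4.46 and 1.82 in KO, so its KO arrays were the highest and the lowest of the 4.

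The 20 further probes of 16 genes with more than 1 probe gave the sign of the probe used for 19 at number 2, 19 at number 3 and 17 in the mean difference. All probes of a gene shared 1 sign of the mean difference for 14 of the 16 genes, and the exceptions were Cpt1a and Ppargc1b.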

How the data were processed

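Each array was hybridised with Cy3-labelled RNA of 1 left ventricle sample, and group and number were taken from the sample titles. The authors extracted intensity values with Agilent Feature Extraction, listed as version 10.7 in the submitters' processing notes. Per the file headers the deposited processed intensity was background-subtracted and detrended, and the array grid refers to build mm9 (NCBI37). The authors also deposited log2 values, made with GeneSpring per the methods, and between 99.90% and 99.96% of them per array matched the log2 processed intensity after quantile normalization to within 0.01. Their scale, lack of centring and direction follow from that match, and each column had a median of 6.78.

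Control spots and 92 to 116 flagged spots per array were left out, no spot was saturated, and spots of a probe were averaged. Well above background were 68.2% to 72.0% of probes, and the number of arrays limits the precision. The log2 processed signal was shifted by the array's 75th percentile, which was 876.3 on WT 2 and 976.1 on WT 3, against 607.6 on KO 2 and 885.2 on KO 3. The test covered 28304 probes that were well above background on each array of KO, of WT or of both, with 12864 probes left out as too dim and 6 for a missing value. Differences between KO and WT were tested with lmFit and eBayes of limma 3.58.1, run in R 4.3.3, and Benjamini-Hochberg adjustment over all tested probes, after a trial on simulated data. The text names every gene of the set, with values on each array for the central steps of the pathway and the 4 highest and 4 lowest differences, and the highest and lowest gene of each other list. Of the genes this rule names, 1 is not reported here. Sites were searched in RefSeq promoters with Python 3.11.15.

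The genes, the lists and the scaling on cardiomyocyte markers were chosen with earlier results of these data known. Alternatives were normexp with an offset of 50, quantile normalization, shifts by the median or by the cardiomyocyte list, the authors' values, other cuts on dim probes, a block for the number, leaving out each array, eBayes with trend and robust estimation, the methods' t-test and a mean over the probes of each gene. The position of probes within exons was not determined, as no mm9 annotation was used.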

Additional observations from a re-analysis of the deposited data

Results flagged for a closer look

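Ppara and Ppargc1a were singled out because KO and WT differed by more than 2-fold in opposite directions at the 2 array numbers. For Ppara, KO 2 exceeded WT 2 by 1.55, and KO 3 minus WT 3 was -1.10. For Ppargc1a the same values were 1.26 and -1.10 by its brighter probe. Its dimmer probe gave 1.31 and -0.84, so at number 3 that probe was not past 2-fold. Each value compares 1 array with 1, so the difference between the numbers was not tested. The mean of the 16 cardiomyocyte markers was 6.30 on WT 2 and 5.18 on WT 3, against 7.31 on KO 2 and 4.43 on KO 3. Relative to that mean, Ppara still differed by 0.55 and -0.36 and Ppargc1a by 0.25 and -0.36.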

How the results depend on the processing

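The number of genes past the threshold was 0 of 38 under limma in every setting run, which with 2 arrays a group says nothing about stability. Quantile normalization and the authors' values left 34 of 38 genes higher in KO, with a median of 0.32, and 2 of 38 higher at number 3 in either case. Fabp3, Ppargc1a and Ppargc1b then reversed, to -0.16, -0.038 and -0.017 with quantile normalization and to -0.155, -0.038 and -0.017 with the authors' values. Cpt1a was 0.0010 with a shift by the median, and 0.148 with the mean of all tested probes, where Ppargc1b was -0.022. A shift by the mean of the cardiomyocyte list gave 20 genes with both KO arrays above both WT arrays, against 1.45% of all tested probes. It gave 35 higher at number 3, where 96.3% of all probes were. Ppargc1a was then -0.055, Ppargc1b -0.055 and Esrrg -0.095. A shift by the median of that list gave 6 with separate groups and 35 higher at number 3, counts for which no share of all probes was taken. Ppara was then -0.021, Ppargc1a -0.17, Ppargc1b -0.17, Esrrg -0.21 and Pdk2 -0.0095. The shift by the mean was chosen with earlier results of these data known, and that by the median after the data were seen. With quantile normalization the difference of Lpl was 0.012, and 17 genes kept their sign with a difference smaller by over 1.5 times. In settings that kept 4 arrays, 190 values of single genes were identical to the reported ones by construction, and of the other 266, 17 reversed. Normexp put the median of all probes at 0.13, and the median of the 38 genes was 0.47 there. Cuts on dim probes left 37 or 38 genes higher.

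The array number was used as a replicate block because both groups share the numbers 2 and 3, though no label says that it marks a pair. The differences between the numbers correlated between WT and KO with r = 0.569 over 28304 probes, which are not independent. With the block the median stayed at 0.50 by construction, the lowest unadjusted p among the 38 genes was 0.156 by limma, 0 were called, and 602 of all probes, against 410, had an unadjusted p under 0.05. The methods' t-test called 88 of all probes before Benjamini-Hochberg adjustment and 0 after it, and 0 of the 38 genes either way. Slide and scan could not enter as a block, as there was 1 slide.

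With 1 array left out, limma takes the spread of the remaining group for the lone array too. The median difference lay between -0.75, without KO 2, and 1.87, without KO 3, and the genes higher in KO numbered between 1 and 37. Without KO 3, 33 of 38 had an unadjusted p under 0.05 by limma, with a lowest adjusted p of 0.149, as had 25.7% of all probes, and without KO 2 there was 1, against 5.99% of all probes. Of 152 values of single genes, 55 reversed. In uptake and activation the range was -0.36 to 1.33 for Cd36, -1.25 to 1.92 for Lpl, -0.89 to 1.42 for Fabp3 and -1.07 to 2.09 for Acsl1. In the carnitine shuttle the range was -0.61 to 0.55 for Cpt1a, -1.25 to 2.19 for Cpt1b, -0.59 to 1.94 for Cpt2, -0.48 to 1.10 for Slc25a20 and -0.61 to 1.81 for Crat. In beta-oxidation the range was -0.65 to 2.27 for Acadvl, -0.80 to 1.85 for Acadl, -0.99 to 1.81 for Acadm, -0.51 to 1.91 for Acads, -0.55 to 1.67 for Echs1, -0.61 to 2.12 for Hadh, -0.63 to 1.87 for Hadha, -1.01 to 1.86 for Hadhb, -0.68 to 2.19 for Acaa2, -1.11 to 2.32 for Eci1, -0.18 to 1.35 for Eci2 and -0.83 to 2.09 for Decr1. In electron transfer the range was -0.88 to 1.69 for Etfa, -0.51 to 2.02 for Etfb and -0.89 to 2.00 for Etfdh. In ketone use the range was -1.15 to 2.51 for Bdh1, -0.70 to 1.58 for Oxct1 and -0.67 to 2.40 for Acat1. Among the regulators the range was -1.82 to 2.27 for Ppara, -1.68 to 1.83 for Ppargc1a, -1.26 to 1.41 for Ppargc1b, -0.55 to 1.42 for Esrra, -1.22 to 2.08 for Esrrb and -1.29 to 1.36 for Esrrg. In fuel choice the range was -1.10 to 1.57 for Pdk2, -0.0091 to 1.93 for Pdk4, -0.52 to 1.44 for Mlycd, -1.42 to 2.00 for Acacb and -0.59 to 1.86 for Acot2.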

Other observations

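Of 14 genes of lipid storage and lipolysis, 4 had the order KO 3, WT 3, WT 2, KO 2 from high to low, namely Plin2, Angptl4, Acaca and Scd1, which were picked out after their values were seen. The share of all tested probes with this order was not counted. It was also the order of 3 of 18 other mitochondrial fatty acid genes, 2 of 14 other regulators and 1 of 6 further ketone genes. Of 10 pyruvate dehydrogenase genes 1 had it, and of 14 peroxisomal and 15 tricarboxylic acid cycle genes 0. Without the share of all probes, no difference between lists can be read from these counts. For Acaca, WT 3 and WT 2 were nearly level, at -2.375 and -2.39. Plin2, a coat protein of lipid droplets, was 3.94 on WT 2 and 4.97 on WT 3, against 3.71 on KO 2 and 5.75 on KO 3. Angptl4, a secreted inhibitor of lipoprotein lipase, was 3.28, 4.24, 2.88 and 4.82 on the same arrays. Of 10 macrophage markers, 7 had this order too, and their part in these levels was not tested.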
